A study of Danio rerio with 2 samples.

Results

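Fatty acid binding proteins are small cytoplasmic carriers that hold a lipid inside a barrel of beta strands, and different paralogues serve liver, gut, brain, muscle and other tissues. The genes described here were all rows of the deposited table whose symbol was fabp1a, fabp1b.1, fabp2, fabp3, fabp6, fabp7a, fabp7b, fabp10a, fabp11a or fabp11b. These 10 symbols gave 11 of the 33733 rows, because fabp11a was listed at 2 places on chromosome 19. The mutant library was made from 20 pooled larvae of the AB/TL strain homozygous for lri25, taken whole at 5 days post fertilisation (dpf). It was set against 1 library of 20 pooled wild-type larvae from the same clutches, of the same strain and age. Which gene carries the lri25 mutation is not stated in the labels, so the genotype was not checked from transcripts, and no other allele or agent is given. Each genotype had 1 library, so no difference below has a replicate check or a test.

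In textbook accounts, these carriers move long-chain fatty acids, and in some paralogues bile acids, from membranes to the organelles that oxidise, store or export them. The liver form Fabp10a is the usual hepatocyte marker of zebrafish, and Fabp2 and the Fabp1 proteins are abundant in absorptive enterocytes. Fabp6 is the bile acid carrier of the ileum, Fabp7 the form of radial glia, and Fabp3 the heart and muscle form of mammals. The teleost genes fabp11a and fabp11b are now called fabp4a and fabp4b, after the FABP4 of mammalian adipocytes, macrophages and capillary endothelium. In whole larvae each paralogue can therefore be read beside the marker genes of its tissue, but fewer cells of a type and less RNA per cell cannot be told apart.

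Summed over the family, transcript levels were close to equal in the libraries, while its make-up differed. Values are FPKM, fragments scaled to transcript length and library size, and they summed to 4514 FPKM over the members in the mutant library and 4513 FPKM in the wild type. That was 0.548% of all summed FPKM in the mutant and 0.544% in the wild type. The gut gene fabp1b.1 was the most abundant member in both, at 29.1% of the family total in the mutant and 39.1% in the wild type. The liver gene fabp10a made up 25.7% in the mutant and 17.4% in the wild type, and the glial gene fabp7a 17.9% in the mutant and 11.98% in the wild type. The gut gene fabp2 made up 6.39% in the mutant and 13.1% in the wild type. In the mutant the liver and glial members together thus took a larger part of an equal total, and fabp1b.1 and fabp2 a smaller part.

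**Figure D1:**
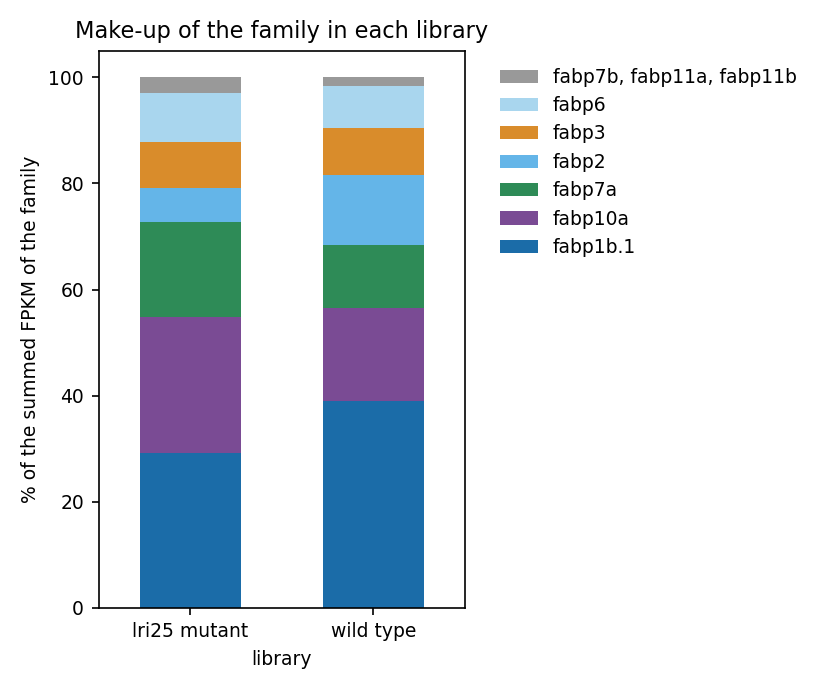
Stacked bars give each member's percent of the summed FPKM of the family in the mutant library (left) and the wild-type library (right), with 1 library per genotype. The fabp1b.1 segment is 29.1% in the mutant and 39.1% in the wild type, and the fabp10a segment 25.7% in the mutant and 17.4% in the wild type.

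Of the 11 rows, 10 reached 1 FPKM in at least 1 library and were compared by log2((mutant FPKM + 1)/(wild-type FPKM + 1)). A gene is counted as higher or lower in the mutant when this difference reached 1 in size, a 2-fold difference. By that measure 1 member was higher, 1 of the fabp11a copies, where 6.08% of all 20256 genes compared were higher, and 1 was lower, fabp2, where 7.12% of all genes were lower. With 10 rows compared, these counts are near the background. The members split evenly, with 5 above 0 and 5 below, and their median difference was 0.10 against -0.01 over all genes compared. The 6 members above 100 FPKM can be set beside the 1009 genes of that level, of which 95% lay between -2.17 and 1.53 and the middle 50% between -0.25 and 0.25. By the same reading, 95% of the 3710 genes whose higher value was between 20 and 100 FPKM lay between -1.51 and 1.31. The fabp11a copy lay outside that range and the other 9 members inside theirs.

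**Figure D2:**
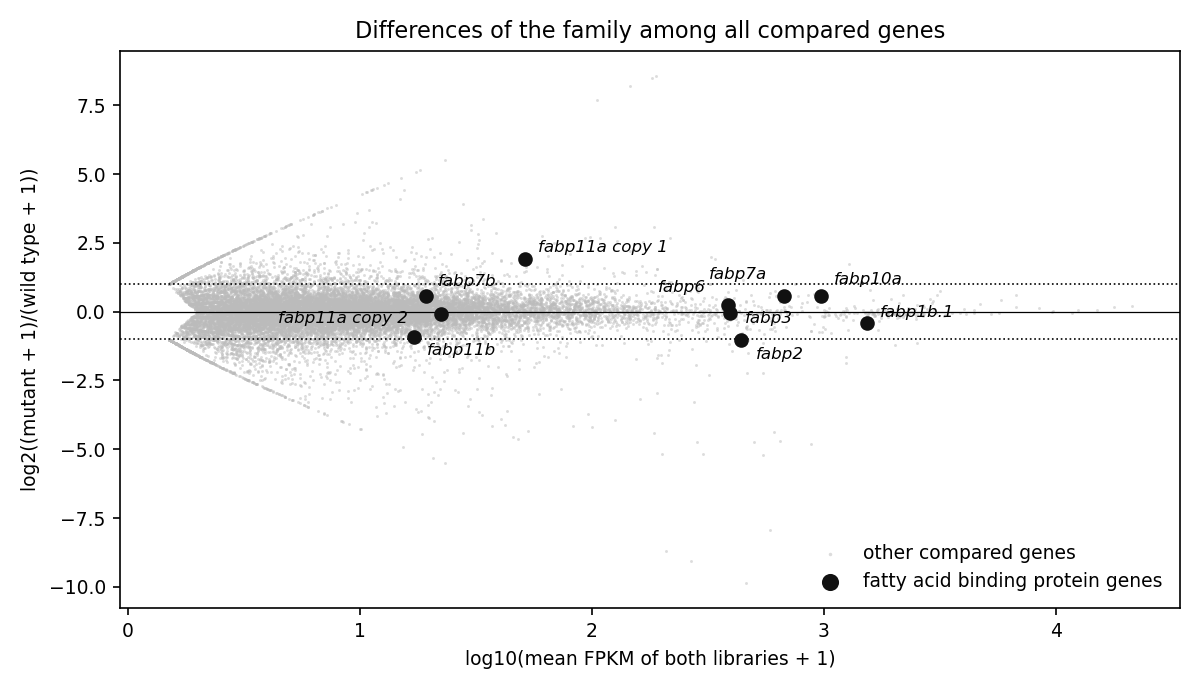
Each grey point is 1 of the other genes compared, with its mean level on the x axis (log10 of mean FPKM + 1) and the log2 difference of mutant over wild type on the y axis; dotted lines mark 2-fold. Of the black family members, fabp11a copy 1 at 1.93 lies above the upper line and fabp2 at -1.03 just below the lower one.

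Several facts of the libraries bear on these values. Depth was gauged from 510 genes above 0 and below 0.5 FPKM in both libraries. Of these, only the 206 with a ratio of mutant to wild type between 0.7 and 0.83 were used, with a median of 0.765. That corresponds to a mutant library 1.31 times deeper, but the window limits in advance the value that can result. The lowest value above 0 at unshared loci of 800 to 1500 bp was 0.247 FPKM in the mutant and 0.320 FPKM in wild type. The faintest compared member, fabp11b, stood well above both. Of the 19 gene lists, the medians farthest from 0 were those of photoreceptors, at -3.75, and of pancreatic digestive enzymes, at -1.47, with 34 of 37 and 14 of 17 rows at least 2-fold lower in the mutant. Their most abundant genes were opn1sw1, gngt2b and opn1lw2, with log2 differences of -4.80, -4.69 and -4.38, and ctrb1 and the trypsin genes now named prss59.1 and prss59.2, with -1.19, -1.87 and -1.14. The photoreceptor list summed to 357 FPKM in the mutant and 9088 FPKM in the wild type, and the pancreas list to 5161 FPKM in the mutant and 13977 FPKM in the wild type. Their part in any difference of the family was not tested. The authors' deposited table marked 68 genes as significant and none of the family's 11 rows; its p-values set 1 library against the other, without replicates of either genotype.

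The liver member fabp10a (ENSDARG00000038439, chromosome 16, 56117757 to 56122739 in build Zv9, a locus of its own) was at 1160 FPKM in the mutant and 786 FPKM in the wild type. The mutant value was 1.48 times the wild-type one, a log2 difference of 0.56, and 109 of the 1009 genes above 100 FPKM differed more in that direction. The median of the hepatocyte list lay on the same side, at 0.41. Of its 47 rows 30 were above 0 and 17 below, with 10 past 2-fold upward and 5 downward. Among those 10 were rows of cpn1 at 18.4 and 7.49 FPKM in the mutant, both listed at 0 in the wild type. They were named after their values were seen, and passed the floor through the mutant library alone. Another cpn1 row was at 54.5 FPKM in the mutant and 37.6 FPKM in the wild type, a log2 difference of 0.53. All these cpn1 rows lie at loci of 3 genes, and how reads were divided among them is not stated. Without genes listed at 0 in either library the list median was 0.32. The list held c3a at 2.21 and fgg at 1.57 as well as tat at -1.39 and pah at -0.87, also named after their values were seen. It was thus not uniformly higher. The genes of the list summed to 20858 FPKM in the mutant and 16664 FPKM in the wild type. The plasma apolipoprotein genes apoa2 and apoa1b, both also in the yolk syncytial layer list, had differences of 0.61 and 0.29. In the mutant they were at 8128 and 5202 FPKM, and in the wild type at 5318 and 4257 FPKM. They made up most of both sums, which thus say little about the other rows. The fabp10a difference was thus a little above the list median. The second gene of this class, fabp10b on chromosome 17, which is no member, was at 1.998 FPKM in the mutant and listed at 0 in the wild type.

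The gut members were not alike. The fabp1b.1 gene (ENSDARG00000059227, chromosome 8, 910208 to 920867) was at 1314 FPKM in the mutant and 1763 FPKM in the wild type, a log2 difference of -0.42. It shares its locus with the tandem copy fabp1b.2, at 38.4 FPKM in the mutant and 53.9 FPKM in the wild type, and reads could have been assigned to either. The sum of both was 1353 FPKM in the mutant and 1817 FPKM in the wild type, a log2 difference of -0.43. Since fabp1b.1 made up most of both sums, this cannot show how another division of reads would change its value. The intestinal carrier fabp2 (ENSDARG00000006427, chromosome 1, 24705631 to 24708975) was at 288 FPKM in the mutant and 591 FPKM in the wild type. Its log2 difference of -1.03 was just past 2-fold and lay between -1.04 and -1.01 over other pseudocounts and scalings. Of the 1009 genes above 100 FPKM, 56 differed more in that direction.

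The ileal bile acid carrier fabp6 (ENSDARG00000044566, chromosome 21, 28787115 to 28791414) lay on the other side of 0. It was at 420 FPKM in the mutant and 354 FPKM in the wild type, a log2 difference of 0.25, which is at the upper quartile of the genes above 100 FPKM. For each unit of fabp2 there were 1.46 units of fabp6 in the mutant library and 0.598 units in the wild type. Against fabp1b.1 the ratio was 0.319 in the mutant and 0.200 in the wild type. The ratio of fabp10a to fabp2, liver to gut, was 4.02 in the mutant and 1.33 in the wild type.

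Marker genes of the gut can be set beside these members. In the enterocyte list 27 of 33 rows were below 0, with a median of -0.34 and none at least 2-fold apart in either direction on the log2(FPKM + 1) scale. Summed over the list, the level was 5482 FPKM in the mutant and 5695 FPKM in the wild type, of which the 3 most abundant genes were lipoprotein components. Those were apoa1a, with a log2 difference of -0.03, apoc2, with 0.31, and apoa4, with 0.26. The apoa1a gene alone was at 3012 FPKM in the mutant and 3086 FPKM in the wild type, so the sum says little about the other rows. The fabp1b.1 value was near the median of this list, but without genes at a shared locus the median was -0.16, and fabp1b.1 is itself at one. On the log2(FPKM + 1) scale fabp2 lay below all 33 rows. The lowest gene of the list on that scale, the meprin gene mep1a.2, named after its values were seen, stood at -0.94, but as a plain ratio of mutant to wild type it was at 0.453 and fabp2 at 0.488. The list of ileal and lysosome-rich enterocytes had 8 of 19 rows above 0, a median of -0.32, 0 past 2-fold upward and 3 downward. Its bile acid exporter subunit slc51a was at 63.98 FPKM in the mutant and 41.2 FPKM in the wild type. The ileal bile acid uptake transporter slc10a2, named after its values were seen, was at 28.1 FPKM in the mutant and 20.6 FPKM in the wild type. The protease genes lgmn and ctsz of the same list had log2 differences of -0.43 and 0.30. The ileal hormone gene fgf19, also in this list, had one of -1.08. It was at only 0.756 FPKM in the mutant and 2.70 FPKM in the wild type, levels that rest on few fragments. The list median was -0.01 with a floor of 5 FPKM, so fabp6 had no clear place in it.

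**Figure D3:**
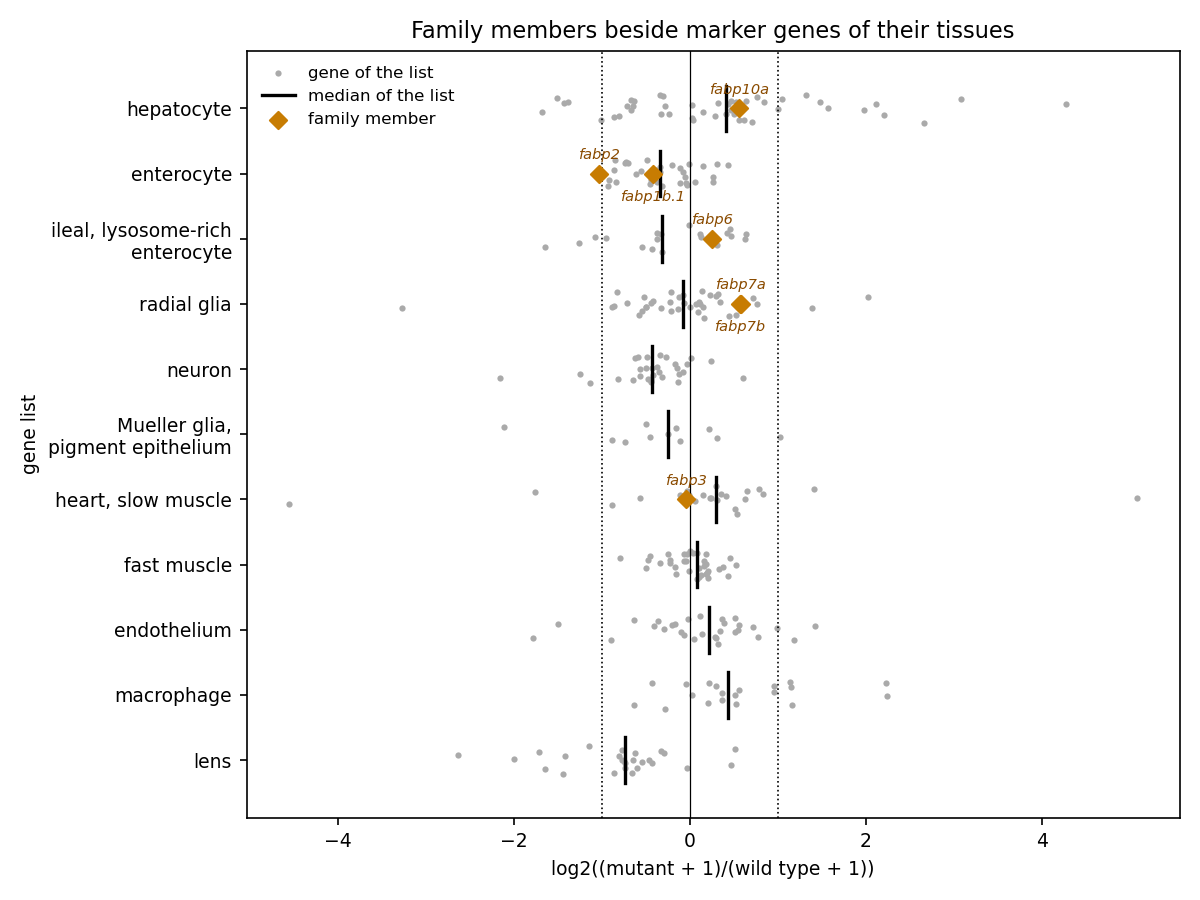
Grey dots are genes of each tissue marker list placed by log2 difference of mutant over wild type, and black bars are list medians. Orange diamonds are the family members set beside each list, and dotted lines mark 2-fold. The diamond of fabp2 at -1.03 lies left of all dots of the enterocyte list on this scale. Those of fabp7a and fabp7b at 0.58 and 0.57 lie right of the radial glia median of -0.08.

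The brain members fabp7a and fabp7b differed widely in level and had near-equal ratios of mutant to wild type. The radial glia gene fabp7a (ENSDARG00000007697, chromosome 17, 15274757 to 15277126) was at 808 FPKM in the mutant and 541 FPKM in the wild type. Its paralogue fabp7b (ENSDARG00000034650, chromosome 20, 40400988 to 40402467) was at 22 FPKM in the mutant and 14.5 FPKM in the wild type. The mutant values were 1.49 and 1.51 times the wild-type ones, log2 differences of 0.58 and 0.57. The ratio of fabp7a to fabp7b was 36.7 in the mutant and 37.2 in the wild type, the steadiest of the 11 ratios between members that were computed. Those ratios did not set fabp7a or fabp7b against the liver member fabp10a. Its mutant value was 1.48 times the wild-type one, so the likeness was not particular to the brain members. Among genes of like level, 105 of 1009 had a higher difference than fabp7a and 469 of 3710 a higher one than fabp7b.

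The rest of the radial glia list did not lie with fabp7a and fabp7b. Of its 38 rows 17 were above 0, with a median of -0.08, 2 past 2-fold upward and 1 downward. The list summed to 2324 FPKM in the mutant and 2090 FPKM in the wild type. The glutamine synthetase gene glulb and the growth factor gene mdka had log2 differences of 0.53 and 0.76, and mdkb one of -0.07. The glial filament gene gfap was at 31.8 FPKM in the mutant and 59.4 FPKM in the wild type, and the glutamate transporter slc1a3b at 103 FPKM in the mutant and 24.5 FPKM in the wild type, both named after their values were seen. Neuron genes lay lower, with 28 of 31 rows below 0 and a median of -0.43, among them stmn1b at -0.44, snap25a at -0.48 and sncb at -0.57. The list of Mueller glia, the radial glia of the retina, and pigment epithelium had a median of -0.25 over 11 rows, with 3 above 0. Its most abundant genes were the lipid carrier apoeb, with a log2 difference of 1.02, glula, with -0.50, and the retinoid isomerase rpe65a, with -0.74. Both fabp7 genes were thus higher in a library whose neuron list was lower and whose glial list was near 0.

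The fabp3 gene (ENSDARG00000023290, chromosome 19, 44558175 to 44596201) was the closest to equal. Its place beside muscle lists rests on the mammalian form, and where these larvae express it was not measured. It was at 390 FPKM in the mutant and 401 FPKM in the wild type, a log2 difference of -0.04 that lay between -0.05 and -0.01 over the alternatives. Its locus also holds 2 other gene entries, both listed at 0 in each library. The heart and slow muscle list had a median of 0.29, with 16 of 23 rows above 0, 2 past 2-fold upward and 2 downward. These 4 rows were named after their values were seen. The upward gene BX323876.2 was at 33.0 FPKM in the mutant and listed at 0 in wild type, and nppa had a log2 difference of 1.41. The downward gene ckmt2a was at 2.73 FPKM in the mutant and 86.9 FPKM in the wild type. The other, mb, was at 12.8 FPKM in the mutant and 45.7 FPKM in the wild type. Without genes listed at 0 the list median was 0.27. The slow muscle myosin light chain genes myl10 and zgc:66286 (now myl13) had differences of 0.65 and 0.62, and the troponin gene tnnc1b one of 0.51. Fast muscle had a median of 0.08 over 35 rows with 0 at least 2-fold apart, and its calcium buffers pvalb2 and pvalb1 and the actin actc1b were at 0.21, 0.19 and -0.03. The fabp3 difference was nearer to that of fast muscle than to that of slow and heart muscle.

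**Figure D4:**
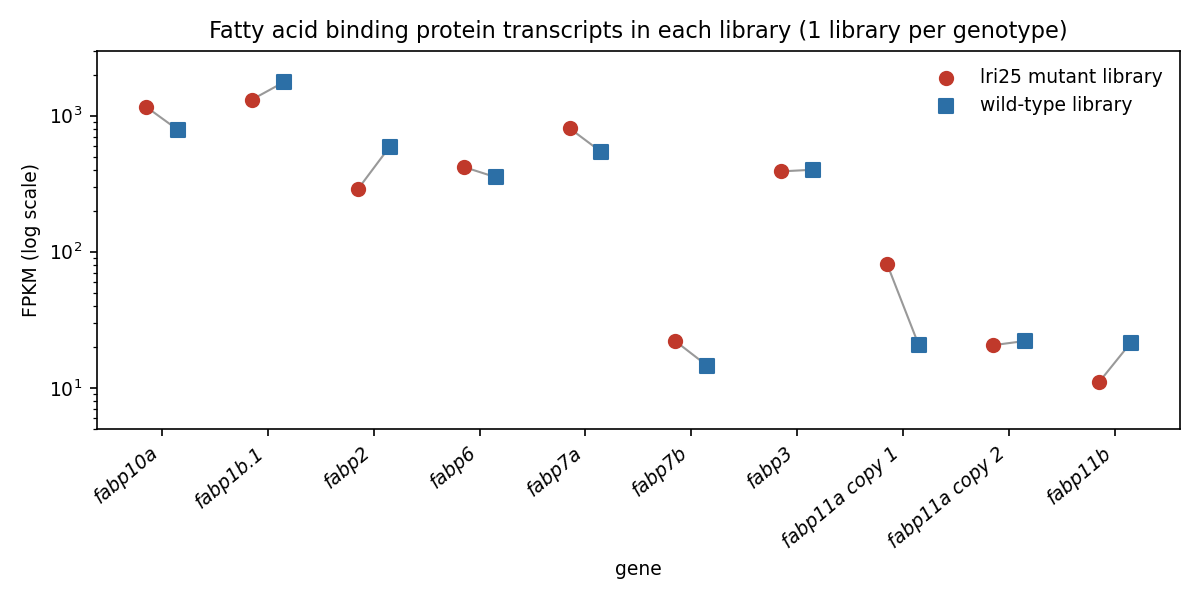
Points give FPKM on a log axis for each compared member in the mutant library (red circles, left) and the wild-type library (blue squares, right), with 1 library per genotype. The mutant point is higher for fabp10a, fabp6, fabp7a, fabp7b and fabp11a copy 1, and lower for fabp1b.1, fabp2, fabp3, fabp11a copy 2 and fabp11b.

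The difference of greatest size in the family was at fabp11a, whose 2 entries went apart. Copy 1 (ENSDARG00000017299, chromosome 19, 33411582 to 33414040) was at 81.1 FPKM in the mutant and 20.5 FPKM in the wild type. That is 3.95-fold higher, a log2 difference of 1.93, and 39 of the 3710 genes between 20 and 100 FPKM had a higher one. Copy 2 (ENSDARG00000090113, chromosome 19, 33519855 to 33522332) was at 20.6 FPKM in the mutant and 22.1 FPKM in the wild type, a log2 difference of -0.10. In the authors' deposited table copy 1 had a p-value of 0.002 and a q-value of 0.225, the lowest of the family, and copy 2 a p-value of 0.873. The ratio of copy 1 to copy 2 was thus 3.95 in the mutant and 0.930 in the wild type.

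The 2 fabp11a entries lie 105814 bp apart in Zv9, each inside the same order of genes. Copy 1 follows MRPL53 (1 of 2), a mitochondrial ribosomal protein gene, by 2170 bp and is followed by FAM8A1 (2 of 3). Copy 2 follows MRPL53 (2 of 2) by 2159 bp and is followed by FAM8A1 (3 of 3). In the later GRCz12tu assembly of RefSeq, the order pag1, mrpl53, fabp4a and fam8a1a is listed with 1 fabp4a entry, which carries fabp11a as a synonym. The identifier of copy 1 is fabp4a in the table of current names, and that of copy 2 was not found there. Whether both are separate genes, and how the authors' counting assigned any reads that match both, is not stated in the labels or headers. The sequences of the entries were not compared, so the level of each copy is uncertain. The sum of both was 102 FPKM in the mutant and 42.6 FPKM in the wild type, a log2 difference of 1.24, which is past 2-fold. Beside copy 1, MRPL53 (1 of 2) was at 26.96 FPKM in the mutant and 20.5 FPKM in the wild type, and pag1, an adaptor of Src family kinase signalling, at 10.5 FPKM in the mutant and 12.7 FPKM in the wild type. MRPL53 (2 of 2) was listed at 0 in the mutant and at 1.59 FPKM in the wild type. None of these neighbours was higher by as much as fabp11a.

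**Figure D5:**
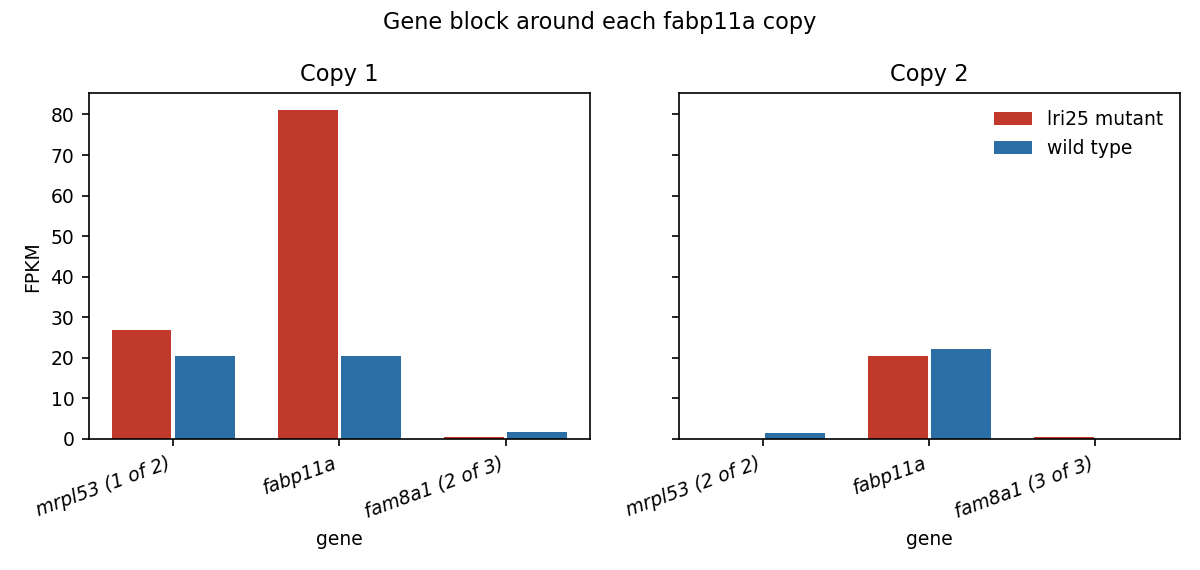
Bars give FPKM of 3 genes in order along the chromosome around each fabp11a entry, in the mutant library (red, left of each pair) and the wild-type library (blue), with 1 library per genotype. The fabp11a bar of copy 1 is 81.1 FPKM in the mutant and 20.5 FPKM in the wild type, while those of copy 2 are 20.6 FPKM in the mutant and 22.1 FPKM in the wild type.

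The paralogue fabp11b (ENSDARG00000002311, chromosome 16, 18199547 to 18202985) lay in the opposite direction. It was at 10.9 FPKM in the mutant and 21.3 FPKM in the wild type, 1.95-fold lower as a plain ratio and -0.90 on the log2(FPKM + 1) scale, just short of the threshold. The 3 fabp11 entries thus spread from 10.9 to 81.1 FPKM in the mutant, while all lay between 20 and 23 FPKM in the wild type. The ratio of fabp11a copy 1 to fabp11b was 7.41 in the mutant and 0.962 in the wild type.

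Tissues that express FABP4 in mammals, and the lens, gave these values beside fabp11a and fabp11b. The macrophage list had 16 of 20 rows above 0, a median of 0.44, 5 past 2-fold upward and 0 downward, and summed to 882 FPKM in the mutant and 729 FPKM in the wild type. Of those 5, c1qb, grn2 and marco, named after their values were seen, were listed at 0 in the wild type and passed the floor through the mutant library alone, at 1.24, 1.22 and 1.21 FPKM, and without such genes the median was 0.36. In this list the apolipoprotein gene apoc1l, also made in yolk and liver, had a log2 difference of 0.21, the amino acid transporter slc7a7 one of -0.05 and the cathepsin ctssb.1 one of 2.24. The apoc1l gene alone was at 757 FPKM in the mutant and 654 FPKM in the wild type, so the sum says little about the other rows. The endothelium list had a median of 0.21 over 30 rows, with 18 above 0 and 12 below, 2 past 2-fold upward and 2 downward. Without genes at a shared locus the median was 0.11. The 2 downward rows, named after their values were seen, were slc2a1a at -1.78 and clec14a at -1.51. The vessel gene vsg1, now plvapb, was at 0.36 and the junction genes cldn5b and cldn5a, both at shared loci, at 1.18 and 1.43. The lens list was lower, with 24 of 26 rows below 0, a median of -0.73 and 7 at least 2-fold lower, and its crystallin genes crybb1, cryba4 and cryba1l1 had differences of -0.77, -0.73 and -0.64. The lens median was thus on the side of fabp11b, and the macrophage and endothelial medians on the side of fabp11a copy 1. These sides were not particular to those tissues. Neuron and enterocyte medians were also below 0, at -0.43 and -0.34. Hepatocyte and heart and slow muscle medians were above 0, at 0.41 and 0.29. No list of adipocyte genes was made. The part of any tissue in the fabp11 differences was not tested.

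The 1 member without a value was fabp1a (ENSDARG00000019357, chromosome 5, 75222493 to 75239904), listed at 0 in both libraries. In the authors' deposited table this row had the status NOTEST, while the 10 compared members had OK. Whether such a 0 stands for too few reads or for an estimate that failed is not stated in the labels or headers. Its locus is shared with smyd1a, a muscle methyltransferase gene at 118 FPKM in the mutant and 146 FPKM in the wild type. The other fabp1 genes lie 2229 bp from smyd1b, the paralogue of smyd1a, which was at 17.7 FPKM in the mutant and 13.3 FPKM in the wild type. So fabp1 and smyd1 genes are neighbours on chromosomes 5 and 8, but only on chromosome 8 was a fabp1 gene listed above 0.

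The genes around the members lay on both sides of 0. Within 60000 bp of the members there were 43 other genes at 1 FPKM or more in at least 1 library, with a median log2 difference of -0.02. On the log2(FPKM + 1) scale none of them passed 2-fold upward and 3 did so downward. Those were gucy1a3 near fabp2, clvs2 near fabp7b and MRPL53 (2 of 2) near fabp11a copy 2, named after their values were seen. Beside fabp2, the 3 neighbours gucy1a3, gucy1b3 and usp53b were all below 0, at -1.01, -0.48 and -0.75.

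Other genes of the same superfamily, the carriers of retinol and retinoic acid with fabp1b.2 and fabp10b, gave 12 compared rows with a median of 0.24. Of them 7 were above 0, 3 were past 2-fold upward and 0 downward. The retinol carrier of enterocytes rbp2a was at 248 FPKM in the mutant and 380 FPKM in the wild type, a log2 difference of -0.62 that lay on the side of fabp1b.1 and fabp2. Its relative rbp2b, at a locus of 4 genes, was at 143 FPKM in the mutant and 124 FPKM in the wild type. The retinoic acid binding genes crabp1b and crabp2b were at 19.9 and 40.9 FPKM in the mutant and at 7.41 and 18.4 FPKM in the wild type, log2 differences of 1.32 and 1.11. Their paralogues crabp1a and crabp2a stood at -0.12 and 0.54, and the remaining retinol carriers rbp1a, rbp7a, rbp7b and rbp1b between -0.30 and 0.42. The third gene past 2-fold was fabp10b, listed at 0 in the wild type, which passed the floor through the mutant library alone. Without genes listed at 0 in either library the list median was 0.20, and without genes at a shared locus 0.41.

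The pathways that these carriers feed lay near equal. Fatty acid oxidation had a median of -0.04 over 27 rows and 0 at least 2-fold apart on the log2(FPKM + 1) scale, where decr2, at 2.07-fold higher as a plain ratio and named after its values were seen, stood at 0.98. The list held the pyruvate dehydrogenase kinase pdk2 at 0.15, the dehydrogenase acadm at -0.37 and the electron carrier etfb at 0.10. Genes for uptake and activation of fatty acids had a median of -0.10 over 27 rows and also 0 at least 2-fold apart. There dbi, which binds acyl-CoA, was at -0.09, got2b at -0.19 and the scavenger receptor cd36 at 46.7 FPKM in the mutant and 71.7 FPKM in the wild type. The lipid-sensing nuclear receptors had a median of -0.09 over 20 rows, with 3 past 2-fold upward and 0 downward. Among their most abundant, rxrba, hnf4a and ppardb stood at -0.41, -0.31 and 0.11. The receptor nr0b2a, which represses bile acid synthesis in mammals, was at 19.6 FPKM in the mutant and 3.68 FPKM in the wild type. Both rows of pparab, a receptor for fatty acids, were at 1.34 FPKM in the mutant and listed at 0 in the wild type. They passed the floor through the mutant library alone, and without genes listed at 0 the list median was -0.16.

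Bile acid genes, the partners of fabp6, had a median of 0.01 over 14 rows, with 7 above 0. On the log2(FPKM + 1) scale 0 were past 2-fold upward and 1 downward. The lower one was fgf19, the hormone by which the ileum of mammals reports bile acids to the liver. It was at 0.756 FPKM in the mutant and 2.70 FPKM in the wild type, levels that rest on few fragments. Also low in level was KLB, named after its values were seen, at 2.12 FPKM in the mutant and 0.918 FPKM in the wild type. It was 2.31-fold higher as a plain ratio and stood at 0.70 on the log2(FPKM + 1) scale. The synthesis genes cyp7a1a and hsd3b7 had log2 differences of -0.37 and -0.16. The yolk syncytial layer list, whose cells export yolk lipid, had a median of 0.18 over 16 rows, with 1 past 2-fold in each direction. Those were vtg7, listed at 0 in the wild type, and ctslb, listed at 0 in the mutant, named after their values were seen. Each passed the floor through 1 library alone, and vtg7 lies at a locus of 7 genes. Without genes listed at 0 the list median was still 0.18. It was 0.07 without genes at a shared locus and 0.02 with no floor. The list held apoa2, apoa1b and the cathepsin ctsla, the last at 0.63.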

How the data were processed

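Whole-larva RNA of 2 pooled libraries was measured, 1 per genotype. Per the labels, RNA was extracted with a Qiagen column kit and prepared by standard Illumina methods; the submitters' processing notes name build Zv9, CASAVA and Bowtie. The deposited values are FPKM, per the layout of the file headers; no label or header names the program behind them or the number of fragments per library. The deposited p-values and q-values are the authors' own. Columns coded for wild type and mutant were matched to the sample titles. The second identifier column was used. Starts in the table count from 0, since end minus start equalled the RefSeq length in 4 of 4 mitochondrial genes, and are printed 1-based.

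Computed here, with Python 3.11.15 and pandas 2.3.3, were log2 differences with a pseudocount of 1 FPKM and medians and counts per list. Genes at 1 FPKM or more in at least 1 library were compared. Of 555 entries in 19 lists, 513 were matched by symbol, current name or synonym; members were left out of the lists. All members and other superfamily genes are named, with the 3 most abundant genes of each list and, for lists of uptake, receptors and bile acids, those at least 2-fold apart; 1 gene that this rule names is not reported here. Members and lists were chosen with earlier results of these data known. The calculation was tested on simulated data whose set differences were well past 2-fold. That test does not bear on values near the threshold or the floor. Sequences and exons are not described. Where lists share genes they are not independent.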

Additional observations from a re-analysis of the deposited data

How the results depend on the processing

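The 10 compared members kept their direction, and their side of the 2-fold threshold, in all 50 alternative values. These came from pseudocounts of 0.1 and 5 FPKM, equal summed FPKM, a median ratio of 0 and upper quartile scaling. None of the values moved by more than 0.25. The scalings multiplied the mutant values by only 1.007, 0.993 and 1.019, and the pseudocounts weigh little above 100 FPKM. Large moves were thus hardly possible there. With upper quartile scaling fabp2 was at -1.01, close to the threshold. Counts of all genes did move. With a pseudocount of 0.1 FPKM, 1866 genes were at least 2-fold higher and 2219 lower, and with 5 FPKM 296 higher and 361 lower. A floor of 5 FPKM gave 612 higher and 721 lower, with fewer genes compared, and leaving out genes listed at 0 gave 797 higher. Of 171 alternative list medians, 167 moved by 0.25 or less. The other 4 were the photoreceptor list, at -4.16 with a pseudocount of 0.1, -2.94 with one of 5 and -4.02 with a floor of 5 FPKM, and the list of ileal and lysosome-rich enterocytes, at -0.01 with that floor. Changes of sign numbered 3. These were the bile acid list, at -0.13 with a floor of 5 FPKM and at -0.001 with the median ratio set to 0, and the nuclear receptors, at 0.10 without shared loci. No paired analysis was possible because each genotype had 1 library. With 1 library per group and unknown fragment totals, neither biological spread nor counting error can be given, and genes near 1 FPKM rest on few fragments.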
